A study of Mus musculus with 4 samples.

Results

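Type I interferon stimulated genes were described in single-cell RNA from mouse pancreatic ductal adenocarcinoma (PDAC), the main cancer of the exocrine pancreas. The list held 34 genes known to be induced by type I interferon, taken by symbol from the 32285 features of the deposited matrices. Of these, 32 had a row and 2 (Mx1 and Mx2) were not analysed here. The samples were 4 droplet libraries, 1 per group, each made from tumour pieces pooled from 3 animals. The control group received PBS. The PH group received 2 agents, paricalcitol (a vitamin D receptor agonist) and hydroxychloroquine (an inhibitor of lysosomal acidification), and the G group received gemcitabine, a nucleoside analogue. The GPH group was taken from its title as the combination, because its treatment label breaks off after gemcitabine at 60 mg/kg. The strain, age and tumour model of the animals are not given in the sources used here. With 1 library per group there is no replicate check, so no test was run, and all intervals are 95% intervals that cover counting error only and say nothing of the spread between animals.

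Type I interferons are secreted proteins that cells make after their sensors meet viral or misplaced nucleic acid. They bind the receptor IFNAR1 and IFNAR2, the kinases JAK1 and TYK2 act on STAT2, which with IRF9 is part of a factor that binds the interferon-stimulated response element (ISRE) in promoters. Many of the induced genes restrict viruses, some (STAT2, IRF9, IRF7) feed the pathway itself, and many also respond to interferon gamma, which T cells and NK cells secrete.

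RefSeq promoters (mouse build GRCm38.p6, 250 bases before to 50 after each start) were matched for 24 of the 32 members. The letters GAAANNGAAA, a short form of the ISRE, were found on either strand, overlapping matches included, in 13 of these 24 genes (54.2%), against 3.99% of 27025 genes with a promoter of the same length. TTCNNNGAA, a short form of the gamma-activated sequence (GAS), was found in 6 of the 24 (25.0%), against 9.55% of all. The 160 bases before the start are shown for 6 members named in the results below, 5 with the ISRE letters and 1 (Xaf1) without them. Sequences run 5′ to 3′ on the gene's strand, and capitals mark the ISRE letters, or their reverse complement where the match lies on the other strand.
Isg15, chr4:156200819-156200978, minus strand: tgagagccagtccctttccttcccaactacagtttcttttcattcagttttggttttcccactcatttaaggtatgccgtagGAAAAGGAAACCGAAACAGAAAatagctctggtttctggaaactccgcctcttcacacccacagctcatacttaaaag
Ifit1, chr19:34640729-34640888, plus strand: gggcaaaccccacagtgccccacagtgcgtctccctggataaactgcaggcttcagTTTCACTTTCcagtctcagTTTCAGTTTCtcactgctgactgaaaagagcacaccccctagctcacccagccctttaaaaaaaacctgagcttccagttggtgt
Ifit3, chr19:34583369-34583528, plus strand: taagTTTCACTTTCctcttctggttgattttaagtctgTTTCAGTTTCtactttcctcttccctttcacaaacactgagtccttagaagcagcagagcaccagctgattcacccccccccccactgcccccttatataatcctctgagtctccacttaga
Bst2, chr8:71537473-71537632, minus strand: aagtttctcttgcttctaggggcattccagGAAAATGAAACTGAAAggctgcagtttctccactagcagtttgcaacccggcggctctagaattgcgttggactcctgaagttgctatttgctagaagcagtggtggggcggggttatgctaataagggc
Oas1a, chr5:120907526-120907685, minus strand: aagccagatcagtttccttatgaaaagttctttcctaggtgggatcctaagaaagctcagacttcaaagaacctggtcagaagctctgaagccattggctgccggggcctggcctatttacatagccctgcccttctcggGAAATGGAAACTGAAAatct
Xaf1, chr11:72301469-72301628, plus strand: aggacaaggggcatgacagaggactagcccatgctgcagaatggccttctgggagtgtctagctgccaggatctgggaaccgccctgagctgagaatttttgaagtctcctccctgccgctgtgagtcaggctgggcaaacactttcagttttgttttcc
The runs in Isg15, Bst2 and Oas1a are overlapping matches, 3 in Isg15 and 2 in each of the other two, while Ifit1 and Ifit3 each hold 2 separate ones. Isg15 itself lies on chromosome 4 at 156199424 to 156200818 (mm10, GENCODE vM21), Bst2 on chromosome 8 at 71534255 to 71537456, and Ifit1 and Ifit3 lie near each other on chromosome 19, at 34640871 to 34650009 and 34583531 to 34588731. A match is a description of letters and no measurement of binding.

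Levels are given as CPM, the usual scaling of a gene's UMIs (tagged molecules) to the UMI total of its cell class in 1 library. They are not scaled to gene length and were compared between libraries and classes, not between genes. After filters, control kept 10074 cells, PH 13977, G 12449 and GPH 4411, at median depths of 4610 to 20103 UMIs, and 41.0% of the GPH barcodes had over 20% mitochondrial UMIs, against 12.7% to 15.6% in the others. Between 17 and 79 barcodes were shared by any pair of libraries, at most 0.594% of the smaller one. The Vim-high class (control 8248 cells, PH 10786, G 2086, GPH 1606) had the mesenchymal filament gene Vim at 3654 to 4445 CPM and the tumour suppressor gene Cdkn2a at 827 to 1215 CPM. Krt19, a keratin gene of ducts, was at 2905 CPM in the 1284 Krt19-high cells of G and 4584 CPM in the 1926 of GPH, and control and PH had 1 and 4 such cells. Macrophage-like cells numbered 262, 364, 1752 and 46 in control, PH, G and GPH, T cell-like cells 360, 357, 2961 and 65, NK cell-like cells 261, 99, 1082 and 12, neutrophil-like cells 30, 22, 831 and 17, and fibroblast-like cells 29 to 38. These classes are called by the cell's name below, and classes with at least 100 cells in both libraries were compared. Vim-high clusters 1 and 28 had the fibroblast markers Dpt and Dcn among their 10 leading genes, so Vim-high results are also given by cluster number.

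Ligand transcripts were found in immune cells and, for type III interferon, a further family, in Krt19-high cells of G. There the 2 listed type III genes summed to 1.405 CPM, against 0 in GPH. In Vim-high cells Ifnb1, the gene of interferon beta, had 0 UMIs in every library, which allows levels of up to 0.0251 CPM in control and 0.0234 in PH, with 0.108 in G and 0.105 in GPH. In macrophages Ifnb1 was at 0.895 CPM in control, 7.18 in PH and 1.70 in G. The control value lies under 1.34 CPM, the level of 3 UMIs in that class, so no ratio is given. Ifng, the gene of interferon gamma, was at 230 CPM in T cells of control, 157 in PH and 120 in G, and at 74.9 CPM in NK cells of control and 38.9 in G. The receptor genes were present throughout, with Ifnar1 at 14.4 to 17.9 CPM and Ifnar2 at 50.7 to 71.5 CPM in Vim-high cells.

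In Vim-high cells, PH had the lowest level of nearly every interferon stimulated gene that could be measured. Of 22 members with a mean of at least 5 CPM over the 4 libraries, 20 were lowest in PH, against 21.5% of the 8485 genes measured by the same rule. The exceptions were Ifitm1, lowest in GPH, and Isg20, an exonuclease gene, lowest in G. GPH was the highest library for 17 of the 22, but it was also the highest for 49.9% of all genes. Isg15, Bst2, Isg20 and Ifi27l2a were highest in control and Ifitm1 in PH.

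**Figure D1:**
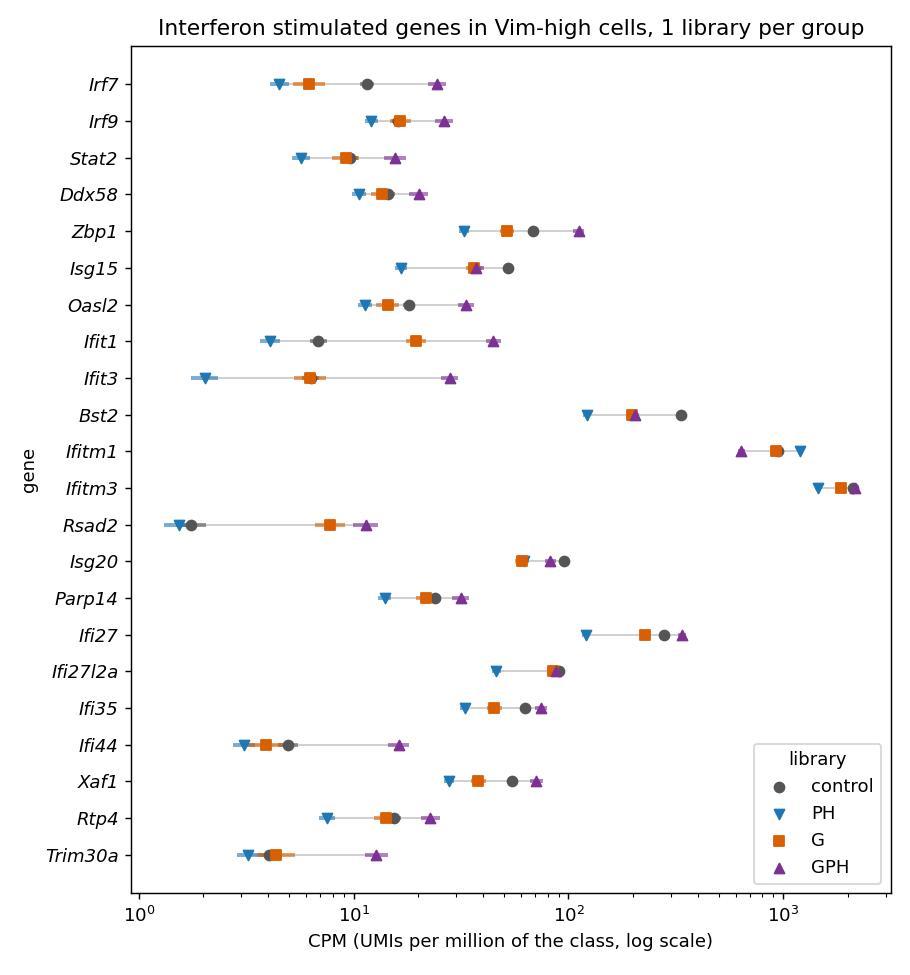
Levels of the 22 measured interferon stimulated genes in Vim-high cells, in CPM on a log axis, 1 point per library with its 95% counting interval as a bar of the same colour. PH is the leftmost point for 20 genes, and GPH is the rightmost for 17.

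Paricalcitol with hydroxychloroquine was set against control to show the pair of drugs without chemotherapy. Of 18 members measured in Vim-high cells (at least 20 UMIs over both libraries and a mean of at least 5 CPM), 14 were at least 1.5-fold lower in PH, where 8.31% of all 8363 measured genes were, and 0 were 1.5-fold higher, against 6.47% of all. The median log2 ratio of the measured members was -0.86 (interval -1.07 to -0.61), against 0.02 over all genes. With no filter on level, 30 of the 32 members had a lower CPM in PH. Of the 8363 measured genes 48.4% did, and the share of all genes without a filter was not computed. Of the 32 members 14 were not measured, some of them nearly equal, such as Oas3 at 0.562 CPM in PH against 0.569 in control.

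The transcription factors came in order of size. Irf7, the factor that amplifies interferon production, was at 11.5 CPM in control and 4.51 in PH, with 6.23 in G and 24.4 in GPH, so PH was 2.56-fold below control (2.32 to 2.82). Stat2 was at 9.63, 5.71, 9.22 and 15.6 CPM in the same order, 1.69-fold lower in PH (1.54 to 1.85). Irf9, the DNA-binding partner, was at 16.1, 12.1, 16.5 and 26.4 CPM, a 1.33-fold difference (1.25 to 1.43) that did not reach 1.5-fold. All 3 had PH lowest and GPH highest.

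Among the effectors, the ubiquitin-like modifier gene Isg15 was at 52.4 CPM in control and 16.6 in PH, with 36.4 in G and 37.1 in GPH, and its 3.16-fold deficit in PH (3.004 to 3.32) was the largest of the 18. Bst2, whose product tethers virus particles to the cell surface, was at 334.5, 121, 198 and 203 CPM, 2.76-fold lower in PH (2.71 to 2.81). Control was the highest library for both genes. The nucleic acid sensor gene Zbp1 was at 68.6, 32.6, 51.6 and 111 CPM, and Ifi27, an interferon-induced gene of mitochondria, at 279.5, 120, 226 and 337 CPM. All 5 measured members among the other induced genes (Ifi27, Ifi27l2a, Ifi35, Xaf1 and Rtp4) were at least 1.5-fold lower in PH, with a median log2 ratio of -0.98. The membrane group was mixed. Ifitm3, which blocks virus entry, was at 2121, 1446, 1861 and 2161 CPM, 1.47-fold lower in PH (1.46 to 1.48), while its neighbour Ifitm1 was at 947 CPM in control and 1202 in PH, the only measured member that was higher.

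Members lower in PH included promoters with and without the ISRE letters. Xaf1 and Irf7, with no match in the RefSeq window, were at log2 ratios of -0.98 and -1.35, beside -1.66 for Isg15 and -1.46 for Bst2 with overlapping matches. Ifitm3 has 2 matches, just after its start, and was at -0.55.

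The difference between PH and control was found within clusters too. In the 8 Vim-high clusters with at least 100 cells in both libraries, the members' median log2 ratio lay between -1.02 (cluster 4) and -0.34 (cluster 13), while the median of all genes lay between -0.08 and 0.10. Isg15 was at least 1.5-fold lower in 8 of 8 clusters (log2 -2.05 to -1.05), as were Bst2 (-1.86 to -1.003) and Ifi27 (-1.34 to -0.79). Irf7 was lower by that much in 7 of the 7 clusters where it was measured. Other members did so in fewer clusters. Stat2 was that much lower in 3 of 6 (-0.82 to 0.48), Ifit1 in 1 of 3 (-0.88 to 0.35) and Ifitm3 in 2 of 8. Irf9 was so in 0 of 8 (-0.55 to 0.26). Clusters 1 and 28, with the fibroblast markers, had a smaller median of -0.38, with 9 of 21 measured members 1.5-fold lower against 12.3% of all genes, and without them the median was -0.94.

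**Figure D2:**
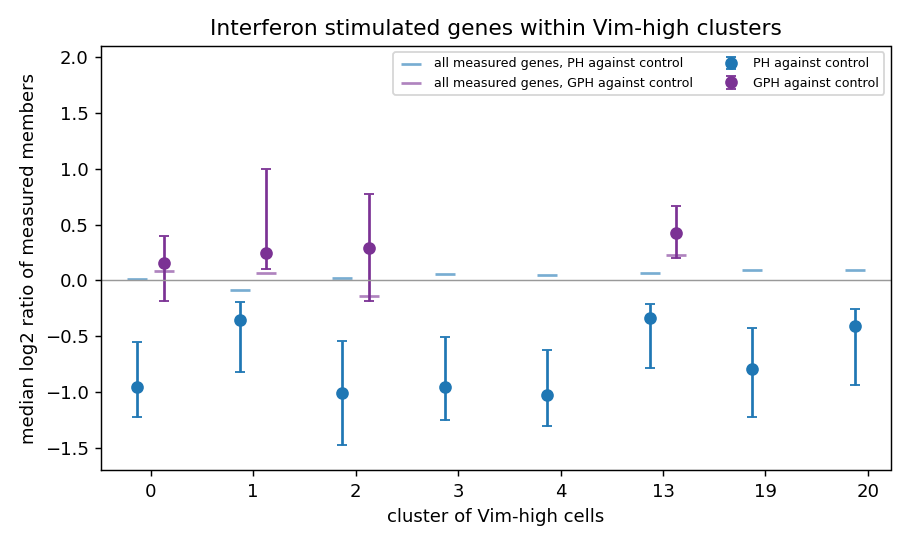
Median log2 ratio of the measured interferon stimulated genes within each Vim-high cluster (points, with 95% order-statistic intervals over genes) for PH against control and GPH against control, with short bars for the median of all measured genes. The PH points lie below 0 in all 8 clusters (-1.02 to -0.34), and the GPH points lie between 0.16 and 0.42 in the 4 clusters compared.

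Among related lists, the other interferon stimulated genes had 6 of 19 measured members at least 1.5-fold lower in PH and 0 higher (median -0.25), and the interferon gamma leaning genes 4 of 12 lower and 1 higher (median -0.39), beside the 8.31% lower and 6.47% higher of all genes. The lower ones included the guanylate-binding gene Gbp4, at 5.44 CPM in PH against 12.3 in control, and Igtp, an immunity GTPase gene, at 30.6 against 67.1. The 1 higher gene was Cxcl10, a chemokine gene, at 98.3 against 59.2 CPM. Of the induction pathway, 0 of 5 passed 1.5-fold in either direction. Of the negative regulators, 2 of 5 were lower, the cytokine brakes Socs1 (23.2 against 40.3 CPM) and Socs3 (120 against 239 CPM).

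The members' UMIs were also viewed cell by cell, which is no independent line of evidence. Vim-high cells were thinned to 5000 UMIs each, which left out 1094 cells in control and 1924 in PH, with 491 in G and 181 in GPH, and the UMIs of 29 members (all but Bst2, Ifitm1 and Ifitm3) were summed. The mean was 4.41 UMIs per cell in control and 2.22 in PH, with 3.81 in G and 5.45 in GPH. Over all 32 members the class sums were 4255, 3199, 3682 and 4139 CPM in the same order, so control was highest there. Cells without a UMI of any of the 29 made up 5.94%, 24.2%, 10.8% and 4.07%, and before thinning 1.26%, 8.45%, 2.45% and 0.561%. No class here is known to lack these genes, so no background share from free RNA could be given.

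**Figure D3:**
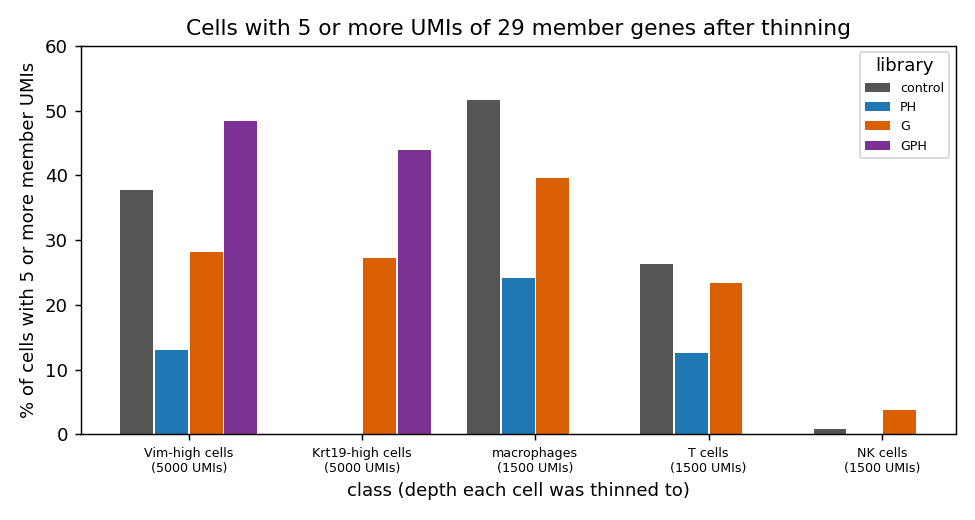
Share of cells (%) with 5 or more UMIs of the 29 members after thinning each cell to the depth under its class, for libraries with at least 100 cells of the class. In Vim-high cells the bars are 37.8% in control and 13.0% in PH, with 28.2% in G and 48.4% in GPH, and in macrophages 51.6%, 24.2% and 39.7% for control, PH and G.

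Gemcitabine alone was set against control in the same cells. Most measured members differed by less than 1.5-fold, and Ifit1 was higher. Of 19 measured members, 1 was at least 1.5-fold higher, against 5.5% of all genes, and 3 were lower, against 7.11% of all. The median was -0.19 (interval -0.52 to -0.06) against -0.05 over all 8349 genes. The higher one was Ifit1, whose product binds viral RNA that lacks a host cap mark, at 6.84 CPM in control and 4.08 in PH, with 19.6 in G and 44.7 in GPH, 2.87-fold above control in G (2.57 to 3.20). It was at least 1.5-fold higher in all 5 clusters where it was measured. Rsad2, which encodes the antiviral enzyme viperin, was at 1.76, 1.55, 7.78 and 11.4 CPM and missed the level needed in this comparison. Oasl1 and Ifit2 missed it too, at 3.71 and 5.08 CPM in G against 0.477 and 2.96 in control. This paragraph's next count is for the class as a whole and was not made by cluster. Of the 22 members with a mean of at least 5 CPM over the 4 libraries, Ifit1 and Rsad2 were at least 1.5-fold higher in both gemcitabine libraries than in both others. That pattern was shown by 1.31% of all genes.

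The 3 lower members were Irf7 (1.85-fold, 1.58 to 2.18), Bst2 (1.69-fold, 1.64 to 1.74) and Isg20, at 60.7 against 95.2 CPM (1.57-fold, 1.49 to 1.65). Isg15 was 1.44-fold lower (1.35 to 1.54). Ifitm3, Stat2 and Irf9 lay at log2 ratios of -0.19, -0.06 and 0.04. Leukocyte RNA moved with this library. The 15 leukocyte markers summed to 21.7 CPM in control and 25.9 in PH, with 164 in G and 29.2 in GPH in Vim-high cells. Without the T cell marker Cd3e the sums were 16.3, 12.8, 146 and 5.61 CPM. In Vim-high cells of G, 14 of the 15 were above 1 CPM. The macrophage gene Lyz2 was at 18.1 CPM there against 11390 CPM in macrophages of G. With cells that held a UMI of any leukocyte marker other than Cd3e left out, the median was -0.04. Of 21 measured members 2 were then higher and 1 lower, where 5.70% and 7.20% of all genes were. Ifit1 was still at a log2 ratio of 1.46.

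GPH was set against control for the full combination. In Vim-high cells the IFIT genes, Rsad2 and all 3 transcription factors were higher in GPH, while Bst2 was lower. Of 24 measured members, 12 were at least 1.5-fold higher, against 21.9% of all 8607 genes, and 1 was lower, against 7.51%. The median was 0.63 (interval 0.26 to 1.49) against 0.20 over all genes. After centring on that shift by median-of-ratios scaling, 9 were higher and 3 lower, where 13.3% and 14.4% of all genes were, with a median of 0.43.

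Ifit1 was 6.54-fold (5.99 to 7.15) and Rsad2 6.48-fold (5.43 to 7.75) above control, the largest ratios of the comparison. Ifit3, a partner of Ifit1, was at 6.32 CPM in control and 2.04 in PH, with 6.26 in G and 27.9 in GPH, 4.42-fold higher (3.998 to 4.89). Ifi44 and Trim30a were 3.28-fold and 3.16-fold higher. Irf7 was 2.12-fold (1.93 to 2.32), Irf9 1.64-fold (1.50 to 1.78) and Stat2 1.62-fold higher (1.45 to 1.81). After centring Irf7 was at a log2 ratio of 0.89, while Irf9 and Stat2, at 0.52 and 0.50, were under 1.5-fold. Bst2 was 1.64-fold lower (1.60 to 1.69), Ifitm1, at 637 CPM in GPH, 1.49-fold (1.46 to 1.51) and Isg15 1.41-fold (1.32 to 1.51), and Ifitm3 was at a ratio of 1.02 (1.01 to 1.03).

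Clusters took different shares of the class in this comparison. Cluster 1 made up 65.3% of the GPH Vim-high cells, against 18.7% in control, 12.5% in PH and 24.4% in G. Within the 4 clusters compared, the members' median was 0.16 in cluster 0, 0.25 in cluster 1, 0.29 in cluster 2 and 0.42 in cluster 13, beside all-gene medians of 0.09, 0.07, -0.14 and 0.23. Ifit1 in GPH stood at 61.8 CPM against 12.6 in cluster 1 but at 16.4 against 8.65 in cluster 0 and 6.31 against 5.06 in cluster 2. Rsad2 could be measured in only 1 of the 4 clusters, at a log2 ratio of 3.01. Isg15 and Bst2 were at least 1.5-fold lower in GPH in all 4 clusters, with log2 ratios of -1.08 to -0.65 and -1.32 to -0.79. With members of at least 20 CPM only, the class median was 0.26 against 0.13 over all genes, and 4 of 14 were higher against 20% of all.

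GPH also held more of the interferon gamma leaning genes, with 13 of 15 at least 1.5-fold higher than control, against 21.9% of all genes, and a median of 0.97 against 0.20. Iigp1, a GTPase gene of cell-autonomous immunity, was at 221 CPM in control and 174 in PH, with 258 in G and 693 in GPH, and Cxcl9, a T cell chemokine gene, at 3.36, 2.98, 20.5 and 28.4 CPM. Of the other interferon stimulated genes, 14 of 22 were higher (median 0.81). Of the receptors and kinases 2 of 7 were (Jak1 and Jak2), close to the share of all genes. These lists were compared for the whole class only, neither by cluster nor after centring. Cluster 1 made up 65.3% of the class in GPH and 18.7% in control, and its part in these list values was not tested. Summed Y-linked transcripts (Eif2s3y, Kdm5d and Uty) in Vim-high cells stood at 11.8 CPM in GPH, 8.42 in G, 0.476 in PH and 0.0753 in control, a difference between the libraries that cannot be told apart from treatment.

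GPH was also compared with each partial treatment. Against G, 13 of 23 measured members were at least 1.5-fold higher (22.9% of all genes) and 0 lower (5.96% of all), with a median of 0.69 against 0.27 over all genes. Ifit3 was 4.46-fold (3.78 to 5.29) and Irf7 3.92-fold higher (3.32 to 4.66), and Isg15, Bst2 and Ifitm3 lay at log2 ratios of 0.03, 0.04 and 0.22. Clusters gave smaller values, with cluster 1 at 65.3% of the class in GPH and 24.4% in G. The members' medians were 0.29, 0.36, 0.35 and 0.30 in clusters 0, 1, 2 and 13, beside all-gene medians of 0.15, 0.14, 0.03 and 0.27. Of 25, 25, 21 and 23 measured members, 7, 6, 6 and 10 were higher, where 17.3%, 10.1%, 15.9% and 25.1% of all genes were. Lower were 6, 1, 3 and 3, where 5.7%, 3.6%, 13.6% and 5.8% of all genes were. Over these clusters Ifit3 ranged from -0.53 to 1.56 and Irf7 from 0.70 to 1.54, both under their class ratios. Rsad2, at 0.55 for the whole class, ranged from -3.17 to 0.54 and was at least 1.5-fold lower in 3 of 4 clusters. Isg15 ranged from -0.79 to -0.15 and Ifitm3 from -0.31 to -0.02, so both were below 0 in all 4 clusters. Against PH, 20 of 23 were higher (19.9% of all genes) and 1 lower (6.05% of all), the median was 1.45 against 0.16, and Ifit3 differed most, 13.7-fold (11.9 to 15.8). Ifitm1 was the 1 lower member, 1.89-fold (1.86 to 1.92). In clusters 0, 1, 2 and 13 the medians against PH were 1.04, 0.95, 1.21 and 0.86. These comparisons share the GPH library with the one against control.

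The order of the 4 libraries needs a further value beside it. In 17 of the 22 measured members both control and GPH lay above both PH and G, against 25.9% of all genes, but by at least 1.5-fold only in Irf7, against 1.72% of all. Nmt1, a myristoyltransferase gene of no interferon list that was chosen after its values were seen, stood in Vim-high cells at 114 CPM in control and 99.5 in GPH but at 26.1 in PH and 26.4 in G, and in T cells at 159 CPM in control, 31.0 in PH and 38.4 in G. Whether the members' order shares a source with it was not tested.

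Krt19-high cells allowed GPH against G only, and the members parted in both directions there. Of 29 measured members, 13 were at least 1.5-fold higher in GPH, against 20.3% of all 8430 genes, and 5 lower, against 3.35%. The median was 0.49 (interval 0.16 to 0.87) against 0.27 over all genes, and after centring 9 were higher and 7 lower, where 7.59% and 8.85% of all genes were, with a median of 0.22. Cluster 5 held 77.7% of these cells in G and 50.3% in GPH, and cluster 11 the rest. The median was 0.51 against 0.32 over all genes in cluster 5 but 0.19 against 0.23 in cluster 11, and 0.25 against 0.23 for members of at least 20 CPM. Higher were all 3 transcription factors and 3 of the 5 OAS family genes (Oas2, Oas3 and Oasl2), a family known for a second messenger that activates RNase L, while Oas1a and Oasl1 were at log2 ratios of 0.01 and 0.18. Oas2 stood at 9.98 CPM in GPH against 2.55 in G (3.91-fold, 3.20 to 4.82) and Oas3 at 15.2 against 4.99. Usp18, which removes ISG15 and damps the receptor, stood at 16.7 against 4.38 CPM (3.82-fold, 3.28 to 4.47), and Irf7 at 55.4 against 17.5 CPM (3.16-fold, 2.93 to 3.42). Irf9 was 1.83-fold and Stat2 1.58-fold higher, of which Stat2 fell short of 1.5-fold after centring, at a log2 ratio of 0.39.

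The 5 lower members in Krt19-high cells were Ifitm1 (6.03 CPM in GPH against 30.7 in G), Rsad2 (4.09-fold, 3.61 to 4.65), Ifit1 (15.5 against 53.7), Ifitm3 (198 against 340 CPM) and Isg15 (21.5 against 35.8). Ifit1 was 3.46-fold lower (3.24 to 3.70), in clusters 5 and 11 alike (log2 -1.52 and -2.31), and Cxcl10 went the same way, at 91.7 against 271 CPM. Bst2 was at 98.5 against 124 CPM. The leukocyte markers summed to 134.6 CPM in Krt19-high cells of G and 20.95 in GPH. With cells holding a UMI of a leukocyte marker other than Cd3e left out, Ifit1 was at -2.24, Rsad2 at -2.33 and Ifitm1 at -2.24. In Vim-high cells Ifit1 was 2.28-fold higher in GPH than in G for the whole class, but by cluster it was higher in cluster 1 (log2 0.77) and lower in clusters 0, 2 and 13 (-0.97, -0.98 and -1.75).

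**Figure D4:**
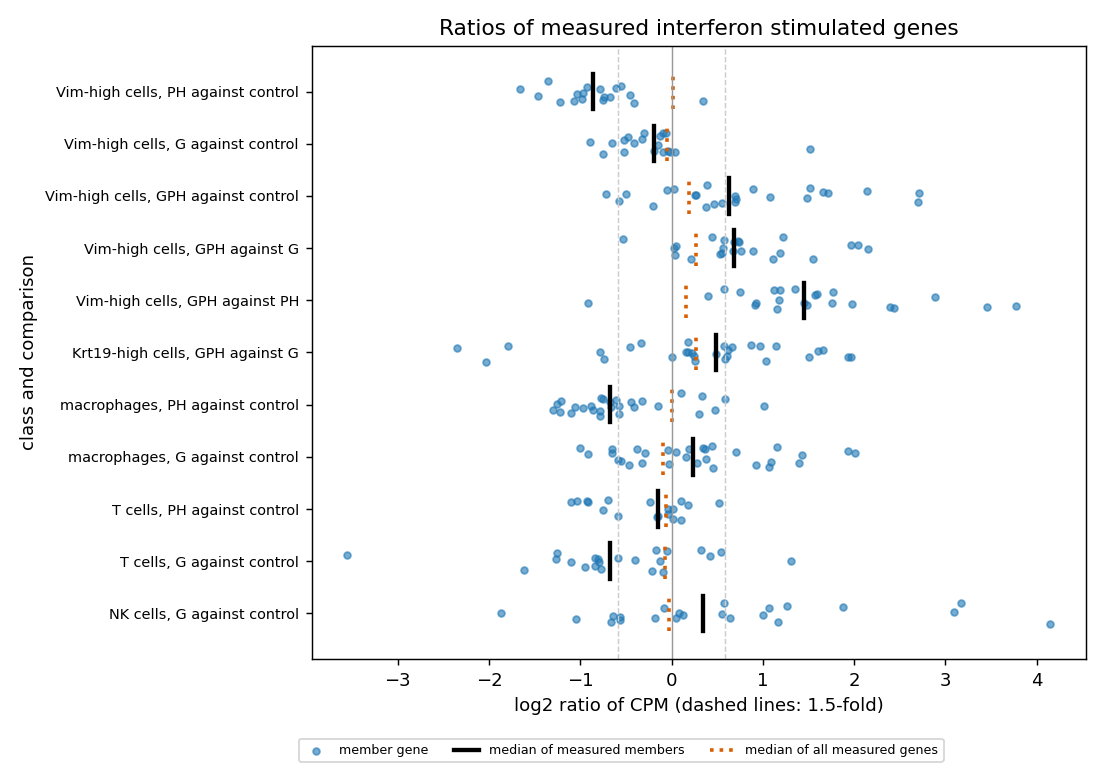
Log2 ratio of CPM for each measured interferon stimulated gene (points, with random vertical offset) in the 11 class comparisons, with a black bar at the members' median and a dotted bar at the median of all measured genes. Members lie mostly left of 0 for PH against control in Vim-high cells (median -0.86) and macrophages (-0.67), and spread widely for NK cells (Ifit1 at 4.15).

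Macrophages of PH also had less of most members than those of control. Of 28 measured members, 16 were at least 1.5-fold lower, against 12.1% of all 8532 genes, and 2 were higher, against 15.6%. The median was -0.67 (interval -0.86 to -0.41) against 0.00 over all genes. All 3 transcription factors and all 3 measured IFIT genes were among the lower ones. Stat2 differed most, at 18.4 CPM in control and 7.48 in PH (2.45-fold, 1.46 to 4.21, from 41 and 25 UMIs). Irf7 was at 76.99 and 37.1 CPM, Irf9 at 26.9 and 15.6, Isg15 at 171 and 102, Bst2 at 466 and 200.5, and Ifitm3 at 2710 and 1579 CPM. The 2 higher members were Ifih1, the sensor MDA5, at 47.9 against 23.7 CPM (2.02-fold, 1.47 to 2.81), and Parp14, an ADP-ribosyltransferase gene, at 63.2 against 42.1 CPM. Cluster 18 held 90.1% of the PH macrophages and 64.5% of those of control, and within it 11 of 28 members were lower, against 13.1% of all genes, and 4 higher, against 17.3%, with a median of -0.49.

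Macrophages of G against control showed both directions. Of 30 measured members, 9 were at least 1.5-fold higher, against 16.6% of all 8340 genes, and 5 lower, against 21.4%, with a median of 0.24 (interval -0.29 to 0.45) against -0.09. With median-of-ratios scaling 9 were higher and 2 lower, where 20.01% and 18.02% of all genes were. Ifit1 was at 101 CPM in G and 25.1 in control (4.03-fold, 3.07 to 5.38), Rsad2 at 197 and 51.5, Oasl1 at 134 and 49.7, and Ifit2 at 45.8 and 20.6. Irf9 was 1.63-fold higher (1.24 to 2.18). Bst2 was the lowest, at 232 against 466 CPM (2.01-fold, 1.86 to 2.16), while Isg15, Stat2, Irf7 and Ifitm3 lay at log2 ratios of 0.44, 0.36, -0.29 and -0.33. Cluster 8 held 78.8% of these macrophages in G and 31.7% in control, and within cluster 18 the median was -0.18 with 8 of 28 higher and 8 lower, where 23.2% and 21.6% of all genes were. The median was also below 0 with clusters or cells weighted equally (-0.19 and -0.16).

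T cells of PH had 7 of 18 measured members at least 1.5-fold lower than control, against 15.5% of all 6692 genes, and 0 higher, against 10.3%. The median of -0.15 (interval -0.75 to 0.02) stood beside -0.06 over all genes. It was -0.68 (interval -0.83 to -0.34) with classes from each cell's own markers, with 13 of 23 lower against 13.1% of all genes. It was -0.51 in cluster 10 alone and -0.41 for members of at least 20 CPM. The 7 were Isg15 (43.3 against 92.8 CPM), Ifi27l2a (702 against 1434), Ifi27, Bst2 (61.2 against 115), Xaf1, Ifi35 and Ifitm1. Irf7, Irf9, Stat2 and Ifitm3 lay at log2 ratios of 0.10, 0.02, -0.04 and -0.23, and the highest, Ddx58, the sensor RIG-I, at 0.52. Fewer members could be measured here, since these T cells gave 1034860 and 1063001 UMIs in control and PH.

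T cells of G had 12 of 22 measured members at least 1.5-fold lower than control, against 18.6% of all 8239 genes, and 1 higher, against 12.4%, with a median of -0.68 (interval -0.95 to -0.09) against -0.07. Cluster 10 held 62.5% of the T cells in control and 29.6% in G, and cluster 16 6.67% and 25.1%. In cluster 10 the median was -0.95 with 16 of 21 lower, against 21.9% of all genes, and in cluster 7 it was -0.41 with 7 of 22 lower, against 25.2%. With cells weighted equally it was -0.29. Ifitm1 was at 149 CPM in control, 98.8 in PH and 12.6 in G, 11.8-fold lower in G (9.45 to 14.7). Irf7 was at 38.7 against 17.9 CPM (2.15-fold, 1.50 to 3.01) and Isg15 at 92.8 against 54.5, and Bst2 and Ifitm3 were lower at log2 ratios of -0.59 and -1.27. Stat2 and Irf9 lay at -0.04 and 0.32. The higher member was Ifit1, at 28.8 against 11.6 CPM (2.48-fold, 1.41 to 4.85), which in cluster 10, led by Cd8b1 and Cd8a, was lower, at a log2 ratio of -1.54. The tumour gene Cdkn2a was at 87.0, 62.1 and 17.3 CPM in T cells of control, PH and G, in the same order as Ifitm1. Its part in these ratios was not tested. Among related genes, 7 of 14 interferon gamma leaning genes were higher in T cells of G and 0 lower (median 0.55).

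NK cells were compared for G against control only. Of 22 measured members, 9 were at least 1.5-fold higher in G, against 15.0% of all 7743 genes, and 4 lower, against 14.8%, and the median of 0.34 (interval -0.57 to 1.17) stood beside -0.02 over all genes. Ifit1 was at 68.8 CPM (347 UMIs) against 3.87 (6 UMIs), 17.8-fold higher (8.08 to 48.8). Ifih1 stood at 23.2 against 2.58 CPM, Isg15 at 96.6 against 40.0 (2.41-fold, 1.85 to 3.20), and Stat2 was higher at a log2 ratio of 1.17. Irf7, Bst2, Irf9 and Ifitm3 lay at 0.08, -0.08, 0.58 and -0.57, and Ifitm1 was lowest, at 11.3 against 41.3 CPM. Lyz2, which marks macrophages, was at 33.7 CPM in these NK cells of G and 0 in those of control, which allows up to 1.94 CPM. Its part in the difference was not tested. PH had 99 NK cells, under the 100 needed, with Isg15 at 11.1 CPM and Ifit1 at 0, which allows up to 8.35 CPM.

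Across the 15 combinations of class and library with at least 100 cells, immune cells held the highest level of most members. The share of all genes that are highest in each combination was not computed, so these counts are not shown to be particular to the members. Neutrophils of G were highest for 17 of the 32, at a median depth of 985 UMIs per cell. Neutrophils entered from G alone, since control, PH and GPH had 30, 22 and 17 of them. Among the factors and sensors these were Irf7 (87.0 CPM), Irf9 (58.0), Stat2 (25.3), Ddx58 (50.5) and Zbp1 (206). Among the effectors they were Isg15 (622), Oas2 (20.6), Oas3 (63.6), Oasl2 (162), Ifit3 (39.3), Ifit3b (8.42, from 9 UMIs), Ifitm1 (3507), Rsad2 (205), Isg20 (296), Parp14 (146), Rtp4 (185) and Trim30a (121). Macrophages of G were highest for Ifih1 (50.5), Oas1a (35.6), Oasl1 (134), Ifit1 (101), Ifit2 (45.8) and Cmpk2 (15.3), and those of control for Dhx58 (29.5), Bst2 (466), Ifitm3 (2710) and Ifi27l2a (1790). Vim-high and Krt19-high cells were highest for 5 members. These were Usp18 (16.7) and Ifi35 (86.4) in Krt19-high cells of GPH, and Ifi27 (337), Ifi44 (16.2) and Xaf1 (71.0) in Vim-high cells of GPH.

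Classes under 100 cells are given as levels only. The 30 neutrophils of control and 22 of PH had Isg15 at 807 and 409.5 CPM, from 32 and 15 UMIs. Fibroblasts had Bst2 at 585 CPM in control and 201 in PH, with 345 in G and 222 in GPH, and Isg15 at 169, 50.6, 166 and 62.5 CPM, so PH was lowest for both. Ifit1 in fibroblasts was at 15.0, 9.79, 103 and 479 CPM, with both gemcitabine libraries above control and PH. The tumour gene Cdkn2a was at 426 CPM in the fibroblast cluster over all libraries. It was at 1213 CPM in Vim-high cluster 0 and 17.1 in T cell cluster 7. Its part in the fibroblast levels was not tested. Macrophages of GPH (46 cells) had Irf7 at 98.5 CPM from 23 UMIs and Isg15 at 25.7 CPM from 6.

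Some members share sequence or position with other genes. The transcripts of Ifit3 and Ifit3b are 98.0% identical over 1697 aligned bases and those of Oas1a and Oas1g 97.5% over 1860, so their counts are uncertain where reads could not be assigned to 1 copy. In the annotation Irf7 overlaps Phrf1, Dhx58 overlaps Dhx58os, Usp18 overlaps Gm44148, Oasl1 overlaps Gm13822, Ifi35 overlaps Gm11626 and Rtp4 overlaps Masp1, each on the other strand, and Irf9 overlaps Rnf31 and Rtp4 overlaps Gm45338 on the same strand. Use of strand in the counting is not given in the sources used here.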

How the data were processed

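Droplet single-cell RNA-seq gave 1 library for each of 4 groups, taken from the labels. Values deposited by the authors are unnormalized counts of UMIs for each barcode and gene. Cell Ranger 6.1 and build mm10 are named per the submitters' processing notes, but version 7.0.1 stands in the matrices, per the file headers. Totals were 158887422, 190110092, 144152432 and 143298547 UMIs in control, PH, G and GPH.

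Barcodes with at least 500 UMIs, at least 300 genes and at most 20% mitochondrial UMIs were kept. Scrublet (scanpy 1.11.5) called 0, 1, 0 and 20 doublets by its own threshold, too few to rely on, so the highest scores were removed at 0.8% per 1000 cells (977, 2056, 1573 and 168 barcodes). Cells were clustered together without batch correction and without the interferon genes (30 components, 15 neighbours, Leiden resolution 1.0, igraph 0.11.9, 40 clusters). Classes needed Vim at 2000 CPM or Krt19 at 1000 CPM with Xist under 50 CPM and Ptprc under 50 CPM, or at least 3 markers of a cell type at 50 CPM and 2-fold over other cells. Tumour clusters with a median depth under 0.333 of their libraries', and clusters with more markers of another type among their 10 leading genes, stayed unnamed.

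UMIs were summed per class and library. Ratios of CPM carry exact conditional binomial 95% intervals, levels carry exact Poisson intervals, and list medians carry order-statistic intervals over genes. A count of 0 against a higher count was set to 3 counts. PCR duplicates are removed only as far as UMIs mark them. Genes were called by size alone (1.5-fold), and the scripts were tested on data simulated for PH against control with counting error only. There 0% of unchanged genes passed 1.5-fold in Vim-high cells, 7.53% in macrophages and 13.4% in T cells. Of genes changed 2-fold, 100%, 94.15% and 84.95% were called in the same order. All 34 members are accounted for. Named per comparison are the measured members with the largest and smallest ratio, and Isg15, Bst2, Ifitm3, Irf7, Stat2 and Irf9 throughout, while 1 further gene of this rule is not reported here; other genes come from pathway lists. The members and lists were chosen with earlier results of these data known. Alternatives are given in the closing section. Python 3.11.15, numpy 2.4.6, scipy 1.17.1 and pandas 2.3.3 were used.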

Additional observations from a re-analysis of the deposited data

Results flagged for a closer look

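6 members were at least 1.5-fold higher in one class and at least 1.5-fold lower in another under the same pair of libraries. With 1 library per group the difference between the classes was not tested in any of them. For G against control, Isg15 was at a log2 ratio of 1.27 in NK cells and -0.77 in T cells. Rtp4 was at 1.07 and -0.81 in the same classes. It had 41 UMIs in G and 6 in control in NK cells, 97 and 12 in T cells, and overlapping level intervals in both. Isg20 was at 0.65 in NK cells, where it reversed without doublet removal (-0.31), and at -0.65 in Vim-high cells. Ifit2 was at 1.15 in macrophages, where it reversed with cells weighted equally (-0.11). In T cells it was at -1.61, from 37 UMIs in G and 8 in control. For GPH against G, Ifit1 was at 1.19 in Vim-high cells and -1.79 in Krt19-high cells. Within Vim-high clusters, Ifit1 was higher in 1 (cluster 1, 0.77) and at least 1.5-fold lower in 3 of 4 (-1.75 to -0.97), and cluster 1 made up 65.3% of the class in GPH and 24.4% in G. For PH against control, Parp14 was at 0.59 in macrophages and -0.78 in Vim-high cells.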

How the results depend on the processing

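Of 87 recomputed list medians, 82 kept the sign of the reported value and 82 stayed within its interval. The alternatives that add or leave out clusters were chosen after seeing the data. In clusters 1 and 28 only, the Vim-high medians were -0.38 for PH, 0.0255 for G and 0.25 for GPH against control. With cells that held a UMI of a leukocyte marker other than Cd3e left out, the Vim-high median of G was -0.0373. In cluster 10 alone, the T cell median of G was -0.95. Of 1907 recomputed member values, 1460 stayed within the counting interval, 439 moved and 8 reversed, and the cause was not tested. Reversed in macrophages of G were Ifit2 with cells weighted equally (-0.11) and, in cluster 18 alone, Irf9 (-0.44) and Ifi27 (0.17). Reversed in T cells were Ifitm1 in PH without doublet removal (0.66) and Ifit1 in G in cluster 10 (-1.54). Reversed in NK cells of G were Ifi27l2a with each cell's own markers (0.29) and without doublet removal (1.62), and Isg20 without doublet removal (-0.31). With no low-level filter, 20 of 32 members were 1.5-fold lower in Vim-high cells of PH, against 20.6% of all genes, and with 20 CPM 8 of 10, against 7.46%. In NK cells of G the median was -0.02 at 20 CPM, and in macrophages of G it was below 0 with clusters or cells weighted equally (-0.19 and -0.16) and in cluster 18 (-0.18). With 20 CPM, 4 of 14 members were higher in Vim-high cells of GPH, against 20% of all genes, and with no filter 20 of 32, against 40.9%. T cells of PH had 6 to 13 members lower over the alternatives. Members under 5 CPM could not be compared in the smallest classes. No paired analysis was possible because each group has 1 library.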
